A study of Mus musculus with 2 samples.

Results

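Described here are 20000 peaks from an experiment that mapped the protein CTCF. In the list called on both replicates together, they were the strongest that lay away from every peak of the 2 reproducibility-filtered lists. Chromatin immunoprecipitation followed by sequencing (ChIP-seq) was performed with an antibody against CTCF on the midbrain of newborn B6NCrl mice, at postnatal day 0. The samples formed 1 group of 2 replicates, with no treatment, transgene or mutant allele given in the labels and with sex not collected. The labels number the samples as biological replicates 1 and 2, yet both carried the same biosample and donor records. How far they differ may thus reflect technique alone, and there was no comparison of conditions. Of 300000 peaks in the pooled list, 294903 lay on chromosomes 1 to 19. A peak was dropped when its summit, the base of highest enrichment, was within 200 bp of a summit in the optimal or the conservative list, both thresholded on the irreproducible discovery rate (IDR), a measure of how well peak ranks repeat between peak sets. This removed 72934 peaks, and the 20000 of highest signal among the 221969 that remained are called members below.

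CTCF recognises an extended, non-palindromic stretch of DNA through its row of zinc fingers. Together with the ring-shaped cohesin complex it anchors chromatin loops and the borders of contact domains, and in the nervous system it is known for its part in the promoter choice of clustered protocadherin genes. In the mouse genome, copies of the short interspersed B2 retrotransposons are known to carry a CTCF-like motif and to have spread binding sites. Methylation of CpG dinucleotides within the motif is known to block CTCF at some sites.

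The base favoured at each position by the 2000 strongest optimal peaks is shown first, as the motif the members were read against, and below it the 5 sites of 20 bases that members held most often. Each of these sites is shown with 20 bases either side, at 1 of the strongest members that carried it. All sequences are from GRCm38.p6, the build of the peak lists (mm10), are written 5′ to 3′ on the strand that carries the motif, and have the 20-base site in capitals.
Favoured bases: TGGCCACCAGGGGGCGCCAG
Site 1, chr2:156191692-156191751, plus strand: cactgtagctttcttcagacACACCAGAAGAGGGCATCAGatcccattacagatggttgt
Site 2, chr9:114927032-114927091, minus strand: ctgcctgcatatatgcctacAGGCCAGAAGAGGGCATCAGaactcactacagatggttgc
Site 3, chr14:52317566-52317625, plus strand: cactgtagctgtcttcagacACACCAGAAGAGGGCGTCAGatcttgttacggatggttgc
Site 4, chr15:27923068-27923127, minus strand: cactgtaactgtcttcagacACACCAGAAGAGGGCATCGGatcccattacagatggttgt
Site 5, chr8:107638715-107638774, minus strand: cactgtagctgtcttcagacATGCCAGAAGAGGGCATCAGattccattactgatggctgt

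The next lines show the 4 members of highest signal and the 3 with the highest motif score, because these are the strongest exceptions to the weak signal and weak sites of most members.
Highest signal 1, chr19:61199531-61199590, plus strand: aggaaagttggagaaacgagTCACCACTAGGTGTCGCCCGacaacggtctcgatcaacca
Highest signal 2, chr1:195241556-195241615, plus strand: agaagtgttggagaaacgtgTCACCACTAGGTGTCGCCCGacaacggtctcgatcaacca
Highest signal 3, chr19:61266588-61266647, plus strand: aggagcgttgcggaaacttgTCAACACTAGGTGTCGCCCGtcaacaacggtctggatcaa
Highest signal 4, chr5:151686766-151686825, minus strand: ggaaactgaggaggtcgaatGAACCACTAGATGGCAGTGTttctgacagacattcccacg
Highest motif score 1, chr12:34938088-34938147, plus strand: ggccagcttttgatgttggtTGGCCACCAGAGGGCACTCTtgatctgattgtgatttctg
Highest motif score 2, chr10:121124667-121124726, plus strand: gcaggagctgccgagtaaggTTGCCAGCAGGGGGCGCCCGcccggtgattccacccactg
Highest motif score 3, chr15:26185087-26185146, plus strand: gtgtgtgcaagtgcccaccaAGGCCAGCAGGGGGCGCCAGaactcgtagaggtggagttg

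The members were chosen by their signal, the deposited value that ranks peaks and whose scale is not stated, so their signal is given as a description and was not tested. It ran from 16.6 to 294 with a median of 19.4, and the middle 50% of members lay between 17.8 and 22.005. The threshold fell within a continuous run of values, with the last member and the first peak left out both at 16.586. Optimal peaks on the same chromosomes, 66972 in number, ran from 6.81 to 691 with a median of 76.2. Only 4 members exceeded that median and 10 exceeded a signal of 50, while 561 optimal peaks were weaker than the weakest member. The weakest 20000 optimal peaks had a median of 30.4, which 649 members exceeded. The next 20000 pooled peaks outside both lists had signals of 13.2 to 16.6. At the edge of the distance rule, the 129 members at 201 to 225 bp from an IDR summit had a median signal of 21.1, and the 65 dropped peaks at 176 to 200 bp had one of 21.3. A width of 310 bp was shared by 99.87% of members and by 55.3% of optimal peaks.

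**Figure D1:**
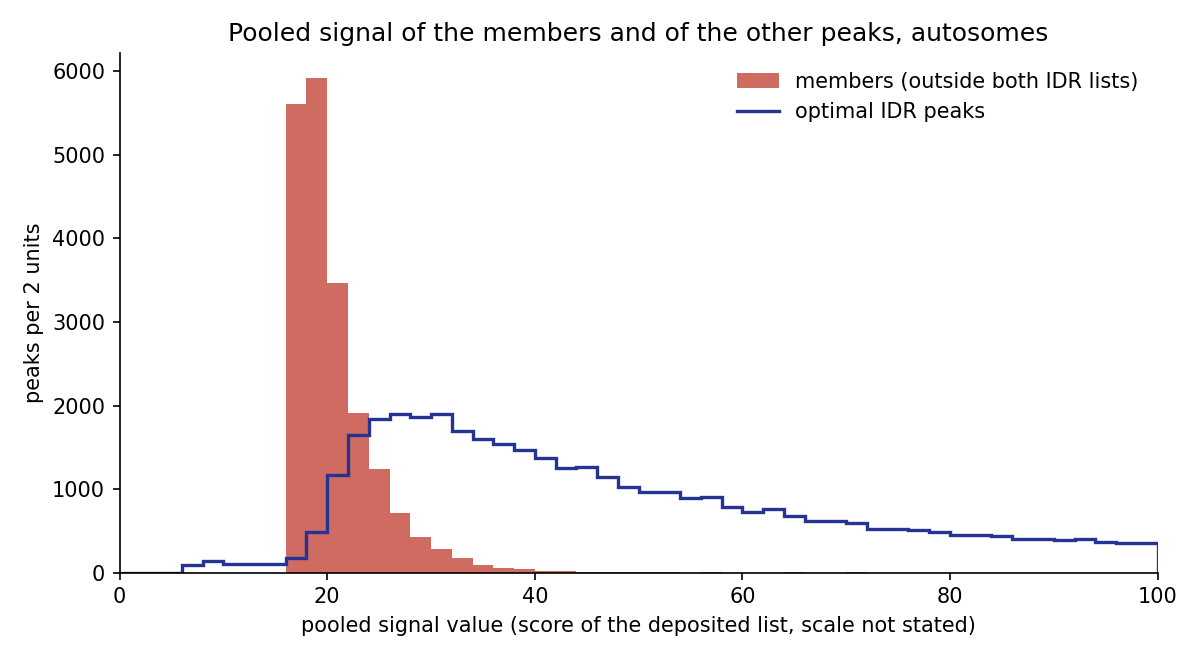
Number of autosomal peaks in bins of 2 signal units, for members (filled, red) and optimal peaks (blue line), drawn up to a signal of 100. Members crowd just above 16.6, and optimal peaks spread over a long tail with a median of 76.2.

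Most members were also listed in each replicate on its own, where a listing means a replicate summit within 100 bp. Of the members, 95.8% were found in the replicate 1 list, 88.8% in the replicate 2 list and 84.7% in both. The share in both lists was 63.7% for the next 20000 pooled peaks and 93.2% for the 20000 weakest optimal peaks. Only 24 members were in neither replicate list, 2210 were in that of replicate 1 alone and 821 in that of replicate 2 alone. The median signal of members was 10.8 in replicate 1 and 7.86 in replicate 2.

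Members differed in how evenly the replicates contributed. On the log2 scale, signal in replicate 1 over replicate 2 was 0.51 at the median member (SD 0.84), and 75.1% lay within 2-fold of that median. The corresponding shares were 86.2% for the weakest 20000 optimal peaks and 94.7% for all optimal peaks. Across the members in both lists, the rank correlation of replicate signals was -0.49, with -0.53 to -0.47 across autosomes. It was 0.0749 over the weakest 20000 optimal peaks and 0.948 over all of them. The members lie in a narrow band of pooled signal, and the IDR lists were themselves made by comparing peak ranks, so none of these values is independent of how the members were chosen.

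A CTCF motif was present in 6291 of the 20000 members, or 31.5% (95% Wilson interval 30.8 to 32.1, SD over autosomes 2.05 percentage points, n = 19). A motif here is a 20-base site centred within 50 bp of the summit that passed a per-position p of 1e-05. It was scored with a log-odds matrix learned from strong optimal peaks of other chromosomes. Windows of the same size 1 kb from the member summits held it in 0.638% of cases, so the share in members was 49.3-fold higher. The difference of 30.8 percentage points had the same direction on 19 of 19 autosomes (exact two-sided sign-flip test over autosomes, adjusted p = 1.34e-05; the smallest unadjusted p that this test allows is 3.81e-06). Autosomes are blocks of the same libraries and not biological replicates, and all intervals over peaks cover counting error only.

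The members stood between the peaks ranked just below them and the weak end of the optimal list, in motif share and in signal. Median signals were 14.6 in the next 20000 pooled peaks, 19.4 in members and 30.4 in the weakest 20000 optimal peaks. Differences from either set, here and below, are thus not at like signal. The motif share was 31.5% in members and 22.2% in the next 20000 pooled peaks, a difference of 9.30 percentage points with 19 of 19 autosomes higher (exact adjusted p = 1.34e-05). It was 31.5% in members and 39.4% in the weakest 20000 optimal peaks, lower in members on 19 of 19 autosomes (difference -7.90, exact adjusted p = 1.34e-05). When only the 10000 strongest members were set against the 10000 weakest optimal peaks, that difference was -0.51 (exact adjusted p = 0.734), and that from the next 10000 pooled peaks was 5.47. Ranking by the own list of 1 replicate in place of the pooled list widened the difference from the weakest optimal peaks, to -15.5 without replicate 1 and -13.7 without replicate 2. All optimal peaks together held the motif in 59.2% of cases. Within the members the share followed signal, at 37.2% in the strongest 2000 and 25.9% in the weakest 2000. With looser and stricter thresholds of 1e-04 and 1e-06 the share of members was 56.6% and 8.60%, against 3.82% and 0.0546% in the flanking windows.

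Because optimal peaks carry the pooled signal, the members could also be set beside optimal peaks of like signal. With the members cut into 5 signal bins of equal number, the lowest bin spanned 16.6 to 17.6, where 27.0% of 4000 members and 10.6% of 94 optimal peaks had a motif. In the next 2 bins the shares were 28.5% and 31.9% in members against 24.1% and 22.2% in optimal peaks. In the fourth they were 33.2% and 32.8%, and in the highest 36.7% and 55.1%. Averaged over these bins the members were 2.50 percentage points higher, on 11 of 19 autosomes, which did not pass the test (SD over autosomes 5.18, exact adjusted p = 0.278). The highest bin spans signals of 22.9 to 294 and holds 52888 optimal peaks, most of them far stronger than the members in it. With bins 1 unit wide from 17 to 36, an alternative chosen after seeing the data, the members were 5.09 points higher, at 31.9% and 26.8%, on 16 of 19 autosomes (exact adjusted p = 3.38e-04). In the 5 bins the members were higher past the test with a separation of 1000 bp (5.32, exact adjusted p = 0.00346). The same held at a motif threshold of 1e-04 (4.87, exact adjusted p = 0.0448). It also held with a matrix learned from the weakest optimal peaks (3.99, exact adjusted p = 0.0498). Against the conservative list the value was 4.66 (exact adjusted p = 0.0231). The direction of this comparison was still not stable. In the 5 bins it turned to -16.8 points without replicate 1 (exact adjusted p = 7.63e-06) and -16.3 without replicate 2 (exact adjusted p = 8.90e-06), lower in members on 19 of 19 autosomes in both, where the signal was that of the remaining replicate. It was -2.22 at a motif threshold of 1e-06 (exact adjusted p = 0.00403), -1.88 with the 10000 strongest members (exact adjusted p = 0.156) and -1.34 without repeat-masked summits (exact adjusted p = 0.0727).

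**Figure D2:**
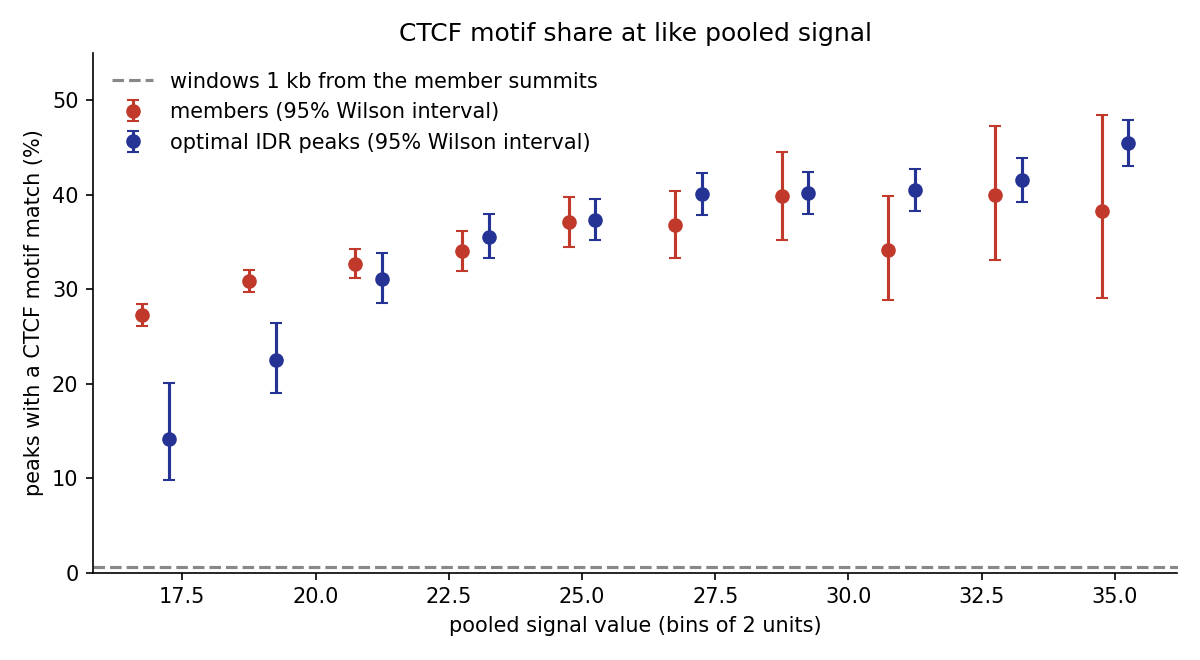
Share of peaks with a CTCF motif in bins of 2 signal units from 16 to 36, for members (red) and optimal peaks (blue), with 95% Wilson intervals. The dashed line is the 0.638% found in windows 1 kb from member summits. Members lie above optimal peaks below a signal of 20, at 27.3% and 14.1% in the lowest bin, and intervals overlap from 20 upward.

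The sites themselves were weaker in members. The mean score of matched sites was 15.7 bits in members and 16.2 bits in the weakest 20000 optimal peaks, a difference of -0.48 bits with 19 of 19 autosomes lower (exact adjusted p = 1.34e-05). Under a matrix learned from the weakest optimal peaks the difference was 0.18 bits in the other direction (exact adjusted p = 0.0482), so it depends on which sites define the motif. Between the 10000 strongest members and the 10000 weakest optimal peaks it was -0.124 bits and did not pass the test (exact adjusted p = 0.156). A CpG was present in 27.2% of matched member sites and 29.96% of those in the weakest optimal peaks (difference -2.79, lower on 14 of 19 autosomes, exact adjusted p = 0.00349), and with the 10000 strongest members the difference was 0.423 (exact adjusted p = 0.959). In all optimal peaks that share was 38.2%. The median distance of a site from its summit was 11 bp in members, 9 bp in the weakest optimal peaks and 5 bp in all optimal peaks. Members carried the site on the plus strand in 50.5% of cases.

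Read by position, member sites departed from the favoured bases in a patterned way. The favoured base was at position 5 in 99.8%, at position 10 in 99.9% and at position 13 in 99.3% of member sites. Any other base at these positions scored -5.53 bits or lower in the matrix. Passing the match threshold thus nearly required the favoured base there, and these shares say little about the members. At position 7 the favoured C was present in 20.6% of member sites, 22.9% of those in the weakest optimal peaks and 42.7% of those in all optimal peaks. There 76.7% of member sites had G. Position 8 was A in 62.0%, position 11 was A in 71.2%, position 16 was A in 65.7% and position 1 was A in 56.0% of member sites, each in place of the favoured base. The weakest optimal peaks were similar. At positions 1, 8, 11 and 16 the favoured base was in 21.4%, 22.8%, 31.9% and 36.5% of their sites. Member sites held it in 18.6%, 20.9%, 28.5% and 30.9%. None of the 6291 member sites was identical to the favoured 20 bases, and neither was any site of the weakest or of all optimal peaks. Member sites shared a median of 12 positions with it, against 13 in both of those sets.

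**Figure D3:**
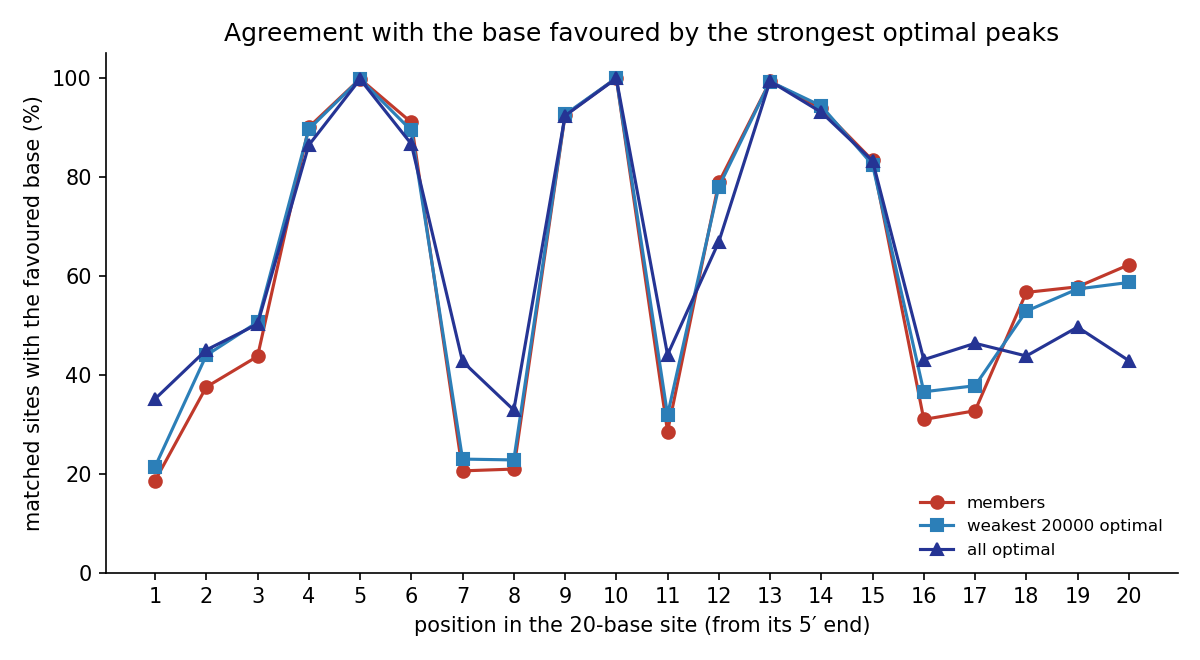
Percent of matched sites that hold, at each of the 20 positions counted from the 5′ end, the base favoured by the strongest optimal peaks, for members, the weakest 20000 optimal peaks and all optimal peaks. Members are at 20.6% at position 7 and 28.5% at position 11, against 22.9% and 31.9% in the weakest and 42.7% and 44.0% in all optimal peaks.

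Many of these sites were copies of one another. Of the 6291 matched members, 43.4% shared their exact 20 bases with at least 1 other member, against 40.5% in the weakest optimal peaks and 26.1% in all optimal peaks; this share also depends on how many peaks a set holds. Site 1 was held by 419 members, 99.3% of them with a summit in repeat-masked sequence, and by 284 of the weakest optimal peaks and 362 of all optimal peaks. Site 2 was held by 132 members, 189 of the weakest and 555 of all optimal peaks. Sites 3, 4 and 5 were held by 99, 84 and 60 members. Sites within 2 differences of site 1 made up 27.2% of matched members, 19.1% of the weakest optimal peaks and 6.99% of all optimal peaks. Site 1 was picked as the commonest in the members, so these shares are a description.

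The genome holds far more copies of these sites than there are members. Site 1 occurred 10520 times on the autosomes, counting both strands, and within 50 bp of those copies lay a member in 420 cases (3.99%), an IDR summit in 452 (4.30%), another pooled peak in 2176 (20.7%) and no pooled summit in 7472 (71.0%). Site 2, which differs from site 1 by C2G and A3G (positions counted from the 5′ end of the site, site 1 given first), occurred 1126 times. There a member lay at 132 copies (11.7%), an IDR summit at 606 (53.8%), and no pooled summit at 193 (17.1%). Site 5, with C2T and A3G, occurred 639 times, with a member at 9.39% and an IDR summit at 37.6%. Sites 3 and 4, with A16G and A19G, occurred 2412 and 1618 times, with a member at 4.10% and 5.19% and an IDR summit at 3.77% and 5.19% of copies. Sites changed at positions 2 and 3 were thus listed by IDR at a higher share of their copies than site 1, and those changed at 16 or 19 at a like share. How the authors treated reads that match several copies is not given in the sources used here, and its part in these shares was not tested.

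**Figure D4:**
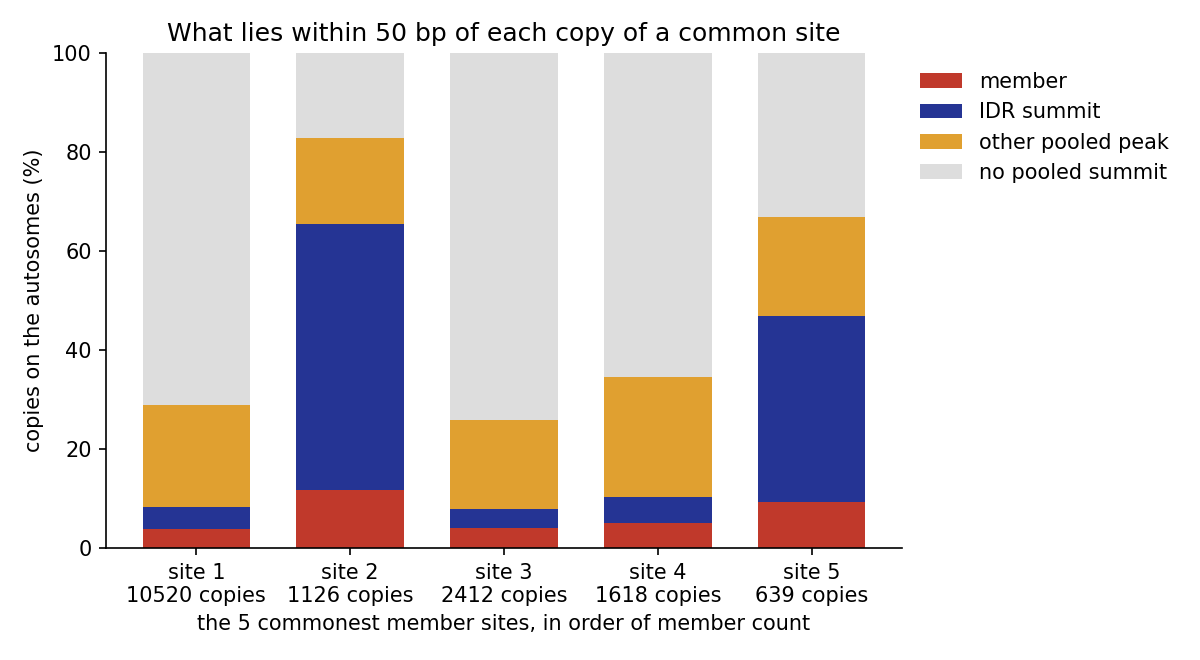
For each of the 5 commonest member sites, the percent of its exact copies on the autosomes with a member, an IDR summit, another pooled peak or no pooled summit within 50 bp. An IDR summit lies at 53.8% of the copies of site 2 and at 4.30% of those of site 1.

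Repeat-masked sequence divided the members sharply. A masked base lay under the summit of 5632 members (28.2%), and 63.8% of these had a motif, against 18.8% of the 14368 members with an unmasked summit. The share was higher in masked members on each of 19 autosomes, with 59.1% to 70.03% masked and 15.3% to 21.3% unmasked. The same split was 72.8% and 25.9% in the weakest optimal peaks. Of matched sites, 57.1% were at masked summits in members, 53.0% in the weakest and 28.8% in all optimal peaks. Over all members, the share of masked summits did not differ past the threshold of the test, at 28.2% in members and 28.7% in the weakest optimal peaks (difference -0.52, SD over autosomes 2.58, exact adjusted p = 0.574). Without replicate 1 the difference was -2.36 (exact adjusted p = 0.00644) and without replicate 2 it was -3.43 (exact adjusted p = 4.20e-04), both past the threshold. Masked bases made up 33.5% of the autosomes. The reference marks repeats without naming families, so the families were not identified here.

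By location, 4257 members (21.3%) lay in promoters, taken as within 1000 bp of an annotated transcript start. A further 961 (4.81%) lay in exons, 8423 (42.1%) in introns and 6359 (31.8%) between genes. Promoters take up 6.28% of the autosomes, so members were 3.39-fold over their share of bases there, and intergenic sequence takes up 50.1%. The promoter share was 21.3% in members and 22.8% in the weakest optimal peaks, lower in members on 15 of 19 autosomes (difference -1.52, exact adjusted p = 0.00349). That direction turned when peaks of a replicate alone were ranked, to 0.385 without replicate 1 and 1.06 without replicate 2, neither past the test (exact adjusted p = 0.630 and 0.0813), and it was -5.555 with a separation of 1000 bp. Against the 19.7% of the next 20000 pooled peaks, members were 1.55 points higher in promoters, on 14 of 19 autosomes (exact adjusted p = 0.00552). This was 4.37 without replicate 1 and 4.885 without replicate 2, on 19 of 19 autosomes. It did not pass between the 10000 strongest members and the next 10000 peaks (1.17, exact adjusted p = 0.156). With promoters of 5000 bp it did not pass either (0.735, exact adjusted p = 0.102). The intergenic share was 31.8% in members and 30.6% in the weakest optimal peaks (difference 1.18, 15 of 19 autosomes higher, exact adjusted p = 0.0421). That call was lost with promoters of 500 bp (exact adjusted p = 0.0858) and 5000 bp (exact adjusted p = 0.114) and without replicate 1 (0.325, exact adjusted p = 0.630), and the value was -0.230 without replicate 2 (exact adjusted p = 0.775). Exon and intron shares differed by 0.205 and 0.140 points and did not pass the test (exact adjusted p = 0.278 and 0.580), while introns passed it in opposite directions with a separation of 1000 bp (2.60) and without replicate 2 (-1.115). Per chromosome, members were densest on chromosome 11, at 11.9 per Mb, and sparsest on chromosome 3, at 6.20 per Mb, the same 2 chromosomes as for optimal peaks.

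**Figure D5:**
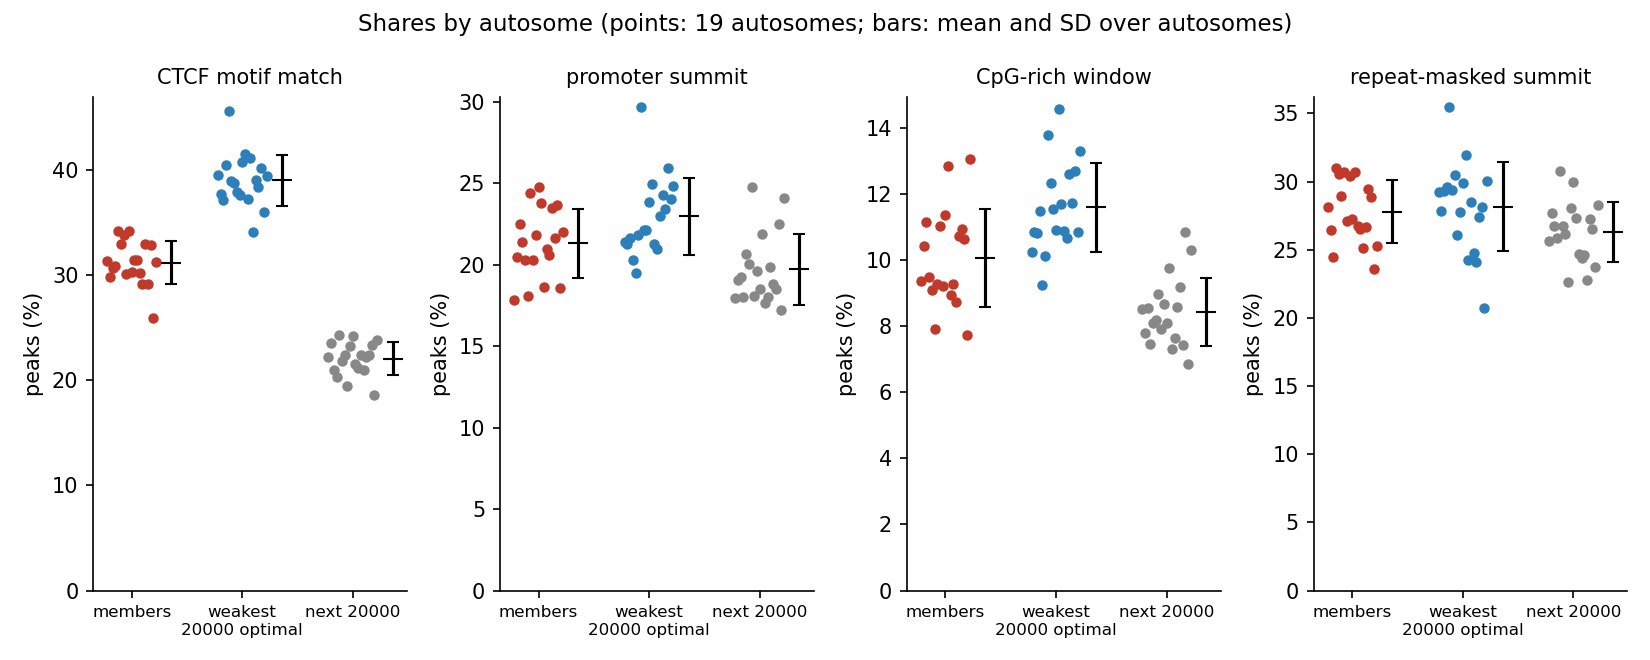
Percent of peaks with a CTCF motif, a promoter summit, a CpG-rich window or a repeat-masked summit on each of 19 autosomes, for members, the weakest 20000 optimal peaks and the next 20000 pooled peaks, with the mean and SD over autosomes. In the motif panel members run from 25.98% to 34.3%, the weakest optimal peaks from 34.1% to 45.7% and the next peaks from 18.7% to 24.4%, so members meet the weakest optimal peaks only at their edges, and the sets overlap broadly in the other panels.

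Promoter members held fewer CTCF sites and more CpG than the others. A motif was found in 13.1% of promoter members, against 28.1% in exons, 36.6% in introns and 37.4% between genes. A CpG-rich window, with at least 50% GC and an observed over expected CpG ratio of at least 0.6 over 201 bp, lay at 40.6% of promoter members and at 1.16% of intronic ones. Over all members 10.04% of windows were CpG-rich, against 11.6% in the weakest optimal peaks (difference -1.53, lower on 17 of 19 autosomes, exact adjusted p = 1.82e-04) and 0.988% of genome windows. Mean GC was 49.7% in members and 50.04% in the weakest optimal peaks (difference -0.38, exact adjusted p = 0.00109), against 41.9% for the genome. Without promoter summits, an alternative chosen after seeing the data, the CpG-rich difference was -0.0672 and the GC difference 0.0305, neither past the test (exact adjusted p = 0.769 for both). Without replicate 2 the GC difference was 0.258, past the test in the other direction (exact adjusted p = 0.0327), and the CpG-rich difference was -0.100 (exact adjusted p = 0.768). CpG-rich members had a motif in 5.13% of cases and the others in 34.4%.

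Of the 13709 members without a motif, 3698 lay in promoters, where 44.7% were CpG-rich and 25.8% had a site at the looser threshold of 1e-04. The other 10011 lay elsewhere, with 2.52% CpG-rich and 40.7% with a site at the looser threshold. Both replicate lists held 79.1% of the promoter group and 84.9% of the others, against 87.8% of members with a motif. Closeness to an IDR summit went with a similar shift. The 577 members between 200 and 500 bp from one were CpG-rich in 35.2% and had a motif in 19.2% of cases, while the 6852 members between 5000 and 20000 bp away were CpG-rich in 7.37% and had a motif in 35.4%. The median member lay 6025 bp from the nearest IDR summit.

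Letters of other transcription factors were searched on both strands within 100 bp of the summit, without removing overlaps with each other or with the CTCF site. They are exact strings, and a match is a description of sequence. In promoter members CCGGAAGT, the core bound by ETS factors, occurred in 2.28%, against 0.419% of their flanking windows and 2.70% of promoter peaks among the weakest optimal ones. GGGGCGGG, bound by SP and KLF zinc finger proteins, occurred in 8.69% of promoter members and 3.07% of their flanks. GCATGCGC, bound by NRF1, occurred in 1.64% and 0.444%, and TGACGTCA, bound by CREB and ATF factors, in 0.822% and 0.140%. In promoter peaks among the weakest optimal ones the shares were 9.78% for SP and KLF, 1.18% for NRF1 and 0.899% for CREB and ATF. Over genome windows of the same length the shares were 0.127% for ETS, 0.522% for SP and KLF, 0.224% for NRF1 and 0.116% for CREB and ATF. AAGATGGC, bound by YY1, was in 1.97% of all members, 1.39% of flanks and 1.79% of genome windows. In members without a CTCF site it was in 1.48%.

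Away from promoters the commonest letters were CAGNTG, a form of the E-box of basic helix-loop-helix factors and the string with fewest fixed bases. They were found in 52.9% of non-promoter members and 40.8% of their flanks. The windows printed for sites 1, 2 and 4 hold CAGATG after the CTCF site, and those for sites 3 and 5 do not. The part of such copies in the difference from flanks was not tested. Over all members the share was 50.5%, against 50.7% in the weakest optimal peaks and 37.01% of genome windows, and it was 47.0% in members without a CTCF site. The other letters ranged from below to above their flanks. TGANTCA (AP-1) was in 5.43% of members and 5.70% of flanks, and TAATTA (homeodomain factors) in 4.22% and 5.35%. ACAATGG (SOX) was in 2.02% and 2.84%, CCAATCA (NF-Y) in 1.72% and 2.25%, and ATGCAAAT (POU) in 1.17% and 1.25%. CTTGGCA (NFI) was in 3.80% and 3.50%, and GTTGCCAT (RFX) in 0.830% and 0.580%. Genome windows held the AP-1 letters in 6.00%, the homeodomain ones in 7.18%, SOX in 3.47%, NF-Y in 2.50%, POU in 1.71%, NFI in 3.11% and RFX in 0.589% of cases.

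The 4 strongest members all lay close to the end of a chromosome and stood apart from the rest. Whether the authors filtered such regions from the IDR lists is not given in the sources used here, and its part in their absence from both lists was not tested. The first had a signal of 294 (155 in replicate 1 and 138 in replicate 2) on chromosome 19, 232010 bp from its end and 2623 bp from an IDR summit whose own signal was 48.2. The second had 288 (149 and 140) on chromosome 1, 230352 bp from the end and 613 bp from a start of the gene Gm27940. They share the site TCACCACTAGGTGTCGCCCG, which occurred 2 times on the autosomes, at these 2 members. The third, with 235 (133 and 99.3) on chromosome 19, held TCAACACTAGGTGTCGCCCG 164952 bp from the end. The fourth, with 189.6 on chromosome 5, lay 147878 bp from the end and 229 bp from an IDR summit of signal 224. It had a signal of 90.4 in replicate 2 and no replicate 1 summit within 100 bp.

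The other 6 members above a signal of 50 had no motif at the threshold used here. The strongest of them, at 71.4, had a masked summit between genes on chromosome 18. The others lay in promoters of Ankrd16 (65.2), an ankyrin repeat gene, of Ctbp2 (52.4), a transcriptional corepressor, and of Cpne9 (51.5), a copine, in an exon of Pcdh17 (57.2), a non-clustered protocadherin, and between genes 4224 bp from Gm11668 (51.3). Ctbp2 had no replicate 1 summit within 100 bp and lay 257 bp from an IDR summit. At the looser threshold of 1e-04 (at most 7.04 bits), the Ctbp2 member (11.9 bits) and that on chromosome 18 (7.92) had a site. The replicates were unequal at Pcdh17, with 40.5 in replicate 1 and 5.45 in replicate 2, and at Cpne9, with 39.8 and 13.2. At Ankrd16 they were 17.2 and 28.6.

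Of the 10 members with the best sites, 9 were above the median member signal of 19.4. The highest score, 25.7 bits, belonged to a member of signal 17.3 on chromosome 12, 21018 bp from a start of Hdac9, a histone deacetylase gene. Its 20-base site occurred 20 times on the autosomes, and the replicates gave it 9.82 and 6.86. The next had a signal of 20.1 and a site with 1 copy, 40954 bp from Wif1, which encodes a secreted WNT inhibitor. The third, with 19.9, lay 122688 bp from the nearest annotated start. The other 7 of the 10 best sites had signals of 19.8 to 26.8. Of the 10, 4 lay in introns, of Hs6st3, Tecpr2, Kif6 and Dnah3, and 6 between genes.

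At promoters of protein-coding genes, members marked genes both with and without an IDR summit. Of 20780 coding genes on the autosomes, 9797 (47.1%) had an IDR summit within 1 kb of a start, 3503 had a member there, 16.9% of all, and 1484 had a member and no IDR summit, 7.14% of all. These 2 shares are the background for the gene lists below, on which no test was run. The 10 strongest promoters with a member alone were Cpne9, Armt1 (46.6), Cbr1 (44.6), Tspyl3 (41.0), Paip2b (40.8), Spats1 (40.2), Tspear (40.1), Fam78a (39.6), Stard3nl (39.5) and Parp8 (39.1). None of the 10 had a CTCF site at the motif threshold used here. At the looser threshold of 1e-04 (at most 7.04 bits), Fam78a (11.4 bits), Stard3nl (11.3) and Tspear (10.7) had one. Cbr1, which encodes a carbonyl reductase, was listed in replicate 1 alone, at 36.5. Paip2b, a regulator of poly(A)-binding protein, had 10.1 in replicate 1 and 28.9 in replicate 2. In 8 of the 10 the member lay within 114 bp of a start.

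The next 2 promoter windows are shown because they carry a member but no CTCF site: the strongest, at Cpne9, and that of a developmental regulator, Pax2. They are 120 bases around the summit on the plus strand of GRCm38.p6, with CpG dinucleotides in capitals, and hold 10 and 13 of them.
Cpne9, chr6:113282363-113282482: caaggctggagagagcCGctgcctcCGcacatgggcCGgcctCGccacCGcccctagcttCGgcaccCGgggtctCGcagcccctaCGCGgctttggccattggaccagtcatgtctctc
Pax2, chr19:44759993-44760112: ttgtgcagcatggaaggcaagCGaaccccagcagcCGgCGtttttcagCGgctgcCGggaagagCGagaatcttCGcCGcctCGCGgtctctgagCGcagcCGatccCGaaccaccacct

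Among genes of midbrain development and patterning, 2 of 28 had a member alone at a promoter, and 11 had an IDR summit. These were Pou4f1, which encodes the POU factor Brn3a, with a signal of 24.6 (16.2 and 7.65), and Pax2, a paired box factor of the midbrain-hindbrain boundary, with 22.2 (16.5 and 6.62). Neither Barhl2 nor En1 had a member or an IDR summit. Of 20 dopaminergic genes, 2 had a member alone, Drd2, a dopamine receptor, at 17.5 (6.81 and 9.29), and Ddc, the enzyme that makes dopamine from L-DOPA, at 16.6 (8.65 and 5.65). Of the 20, 6 had an IDR summit and 12 had neither, Aldh1a1 and Calb1 among them. Both dopaminergic members lay close to the signal at which the members were cut off.

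Of 18 GABAergic genes, 3 had a member alone and 10 had an IDR summit. Among the 3, Tal1, a helix-loop-helix factor of midbrain GABAergic neurons, had 16.9 (7.02 and 9.95). Dlx1 and Dlx2 were among the 5 with neither. The pan-neuronal list had 1 of 17, Uchl1, a ubiquitin hydrolase abundant in neurons, at 20.7 (16.1 and 3.73), and 13 of its genes had an IDR summit. The astrocyte list had 1 of 14, Aldh1l1, a folate enzyme gene used as an astrocyte marker, at 25.3 (19.7 and 4.78). It was the only gene named from the lists with a CTCF site at the motif threshold used here. That site, TGTCCACCAGAGGATGCTAC, lay on the minus strand 5 bp from the summit. At the looser threshold of 1e-04 (at most 7.04 bits), Pou4f1 (11.6 bits), Enpp6 (11.2), Olfr94 (10.7) and Uchl1 (7.96) also had a site. The oligodendrocyte lineage list had 2 of 14, Enpp6 at 19.4 and Olig1 at 16.9. An IDR summit lay at 6 genes of the astrocyte list and at 6 of the oligodendrocyte lineage list.

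Among genes for CTCF and cohesin, 3 of 22 had a member alone and 13 had an IDR summit. Stag3, a meiotic cohesin subunit, had 22.7, Wapl, which releases cohesin from DNA, had 16.7, and Cdca5, whose product sororin protects cohesin, had 16.7. Wapl was listed in replicate 2 alone and Cdca5 in replicate 1 alone. The member given to Cdca5 lay 0 bp from a start of Zfpl1, and that given to Wapl lay 294 bp from its start and 129 bp from one of 5830448L01Rik, so neither can be given to 1 gene. Of 75 cytosolic ribosomal protein genes 8 had a member alone and 53 an IDR summit, and the strongest were Rpl22l1 (23.9), Rps16 (20.9), Rps10 (20.7) and Rpl7a (18.9). The Rpl7a member was 2 bp from a start of Med22, and Rps10 shares its promoter with RPS10-NUDT3, so those members cannot be given to 1 gene.

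Of the other lists, 1 of 56 clustered protocadherin genes had a member alone, Pcdhgc4 at 16.7, and 52 of them had an IDR summit. Of 1086 olfactory receptor genes 3 had one, Olfr94 (38.4, in replicate 1 alone), Olfr1039 (24.5) and Olfr1342 (17.3), and 1072 had neither. None of 15 immediate early genes, of which 14 had an IDR summit, none of 39 Hox genes, none of 15 microglia genes and none of 20 liver genes had a member alone.

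Members were also gathered in places. The densest runs within 50 kb held 8 members, at 3 places on chromosome 11. The first spanned 77954442 to 78003250, over Sez6, a neuronal membrane protein gene, and Phf12, and held 7 IDR summits and 3 members with a motif. The second, 80460829 to 80506893, covered Psmd11, Cdk5r1 and Myo1d, with signals of 17.6 to 31.8, and the third, 115378052 to 115420996, lay over Cdr2l and Kctd2. Runs of 7 lay on chromosome 10 over Cdk4 and Agap2, with 8 IDR summits, and on chromosome 11 over Git1 and Taok1. Each of the 5 runs held 5 to 8 IDR summits, 2 or 3 members with a motif and 5 to 7 members listed in both replicates.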

How the data were processed

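CTCF ChIP-seq peaks were given as 5 lists on mm10, per the deposited notes: 1 per replicate and 1 pooled, each called with a control alignment, and an optimal and a conservative list thresholded by IDR. The caller, aligner, read depth, read length and IDR cutoff were not given in the sources used here. The signal value that ranks peaks is a score per peak as deposited by the authors, on a scale that is not stated. The deposited -log10 q-value, capped at 5.18, was not used for ranking. Depth is therefore unknown.

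The members, gene lists and comparisons were chosen with earlier results of these data known. Log-odds matrices of 20 bp were learned from the 2000 strongest optimal peaks of odd or even autosomes and applied to the other chromosomes. Flanking windows within 200 bp of an IDR summit were left out. GRCm38.p6 gave sequence and repeat masks, and GENCODE vM21 transcript starts. The differences given are of pooled values. The sign-flip test (exact, two-sided) was of the unweighted mean of the differences within 19 autosomes, and the SD over autosomes belongs to that mean. Benjamini-Hochberg adjustment was over 14 tests at 0.05. The code was tested on simulated data (Python 3.11.15, numpy 2.4.6, scipy 1.17.1). Intervals are 95% Wilson.

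Named were the 10 members of highest signal, the 10 of highest motif score, the 10 coding promoters with the strongest member and no IDR summit, up to 4 genes per list with such a member and up to 2 with neither, and the 5 densest runs. Some of the genes so chosen are not reported here. Genes on X were left out. Alternatives changed the separation, number kept, motif threshold, window and matrix, promoter width, IDR list and replicate, and 4 were chosen after seeing the data.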

Additional observations from a re-analysis of the deposited data

How the results depend on the processing

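No paired analysis was possible because the samples form 1 group. The motif share over flanks (8.54 to 52.8 percentage points) and over the next 20000 pooled peaks (3.91 to 12.3) kept direction and call in 12 of 12 alternatives each. Among the other tests, the motif share and the gene count, the values that changed direction or call, or moved, follow as members minus weakest optimal peaks unless stated, in percentage points, and the cause of each change was not tested. With a separation of 1000 bp, introns gave 2.60 and masked summits 0.535, and the comparison at like signal 5.32. The alternative with the 10000 strongest members also cut the weakest optimal and the next peaks to 10000. Here motif gave -0.510, like signal -1.88, promoters over the next peaks 1.17, introns -0.160, masked summits 0.240, motif score -0.124 bits and CpG in sites 0.423. The motif share was then 34.2% and the gene count 792. At a motif p of 1e-04 like signal gave 4.87 and the share was 56.6%, at 1e-06 -2.22 and 8.60%. The matrix from weak peaks gave 3.99 at like signal and 0.185 bits. Promoters of 500 bp gave 1.10 intergenic, and of 5000 bp 0.740 intergenic and 0.735 for promoters over the next peaks. Against the conservative list, like signal gave 4.66, exons 0.390 and introns -0.0100.

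Of the alternatives chosen after seeing the data, 1-unit bins gave 5.09 at like signal. Without masked summits like signal gave -1.34 and the share was 18.8%. Without promoter summits CpG-rich gave -0.0672, GC 0.0305 and the share was 36.4%. Members in both replicate lists gave 0.893 for introns. Leaving out 1 replicate, where the other's own list replaced the pooled one, gave -16.8 to -16.3 at like signal (both past the threshold), 0.385 to 1.06 for promoters, -0.0650 to 0.285 for exons, -1.11 to -0.645 for introns, -0.230 to 0.325 intergenic, -0.855 to -0.100 CpG-rich, -0.467 to 0.258 for GC (both past it, in opposite directions), -3.43 to -2.36 for masked summits (both past the threshold), and a motif share of 23.8 to 25.7%. Depth is unknown, so an unlisted site is not shown to lack CTCF. With 2 replicates under 1 donor record, the spread over autosomes says nothing of the spread between animals.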
